A study of Mus musculus with 15 samples.

Results

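Mitochondria carry their own ribosome and depend on a set of membrane machines that bring in proteins made in the cytosol, and the genes for both were examined in the hippocampus of newborn mice. The group was defined by name: a gene belonged to it when a probe set of the array carried a single platform symbol beginning with Mrpl, Mrps, Timm or Tomm, and the brightest probe set over the 15 arrays was kept for each gene. This gave 102 of the 19938 genes measured, from 116 probe sets, namely 48 Mrpl, 29 Mrps, 15 Timm and 10 Tomm genes. No measured difference entered the rule, but the group was chosen with earlier results of these data known.

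Right hippocampi of male C57BL/6 pups were taken at postnatal day 9, with birth counted as postnatal day 1, and total RNA was hybridised to Mouse Gene 1.0 ST arrays of Affymetrix, which carry probes along the exons of each gene. There were 5 groups of 3 arrays. The CC group was left untreated. The MSS group had mild stress and saline, and the MSM group mild stress and morphine. The SSS group had severe stress and saline, and the SSM group severe stress and morphine. Exposure ran from postnatal day 5 to postnatal day 9, in litters reduced to at most 7 pups per dam. The labels do not describe either stress, the morphine dose or which litter a pup came from, so p-values measure only how far these arrays spread, which may be partly technical. Every treated group had stress together with saline or morphine, so the parts of a treatment cannot be told apart in comparisons with CC.

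The mitochondrial ribosome makes only the few proteins that mitochondrial DNA encodes, all of them parts of the respiratory chain and the ATP synthase, and its own proteins are encoded in the nucleus. Those proteins, like nearly all others of the organelle, enter through the TOM complex of the outer membrane. They are then sorted by the TIM23 complex, which handles proteins with a cleavable presequence, or by the TIM22 complex, which inserts carrier proteins with the help of small TIM chaperones in the space between the membranes. Neurons in the early postnatal hippocampus are building respiratory capacity, and synapses depend on it. The 102 genes fell into 48 of the large subunit, 29 of the small subunit, 9 of the TOM complex, 6 of the TIM23 complex, 2 of the TIM22 complex and 6 small TIM chaperones by their symbols. The remaining members were Tomm34, a cytosolic co-chaperone, and Timmdc1, an assembly factor of respiratory complex I.

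Levels are given as log2 signal minus the median of all 19938 genes on the same array, so that a level of 1 is a signal above that median by 1 log2 unit. On this scale 94 of the 102 genes lay above the median and 8 below it, with a median level of 1.64. Array-to-array correlations over all genes were between 0.9897 and 0.9984. Arrays differed in markers of neighbouring tissue: the mean level of 6 measured striatal markers was 3.49 in SSM replicate 1, 2.20 in CC replicate 1 and between 0.26 and 1.57 elsewhere. The mean of 8 thalamic markers was 2.45 in MSM replicate 3 against at most 1.30 elsewhere, and its mean of 7 measured hippocampal neuron markers was the lowest at 2.21. Choroid plexus markers were low in MSS replicates 1 and 2 and SSS replicate 2, with means between -0.58 and -0.53 against at least 0.55 elsewhere. SSM against MSM and SSM against SSS are also given without SSM replicate 1 and MSM replicate 3, and some counts without the arrays low in choroid plexus RNA. Other comparisons that hold these arrays are given with them, with ranges over single arrays left out for some.

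Relative to their own means, the 102 genes sat slightly higher in SSM than in every other group, taken as a median. No single gene passed the test. The median level of the 102 genes was not highest in SSM. Its group mean was 1.60 in SSM, 1.62 in CC, 1.61 in MSM, 1.59 in SSS and 1.54 in MSS. The SSM arrays ranged from 1.52 to 1.66 on that measure. Across the 102 genes the median difference of SSM from MSM was 0.099 on the log2 scale, and 86 genes had the higher mean in SSM. Over all 19938 genes the median difference was 0.016, and 56.8% were higher. In limma's moderated test, 29 of the 102 genes were higher in SSM at an unadjusted p under 0.05 and 0 were lower, against 6.36% and 4.93% of all genes. After Benjamini-Hochberg adjustment over all genes 0 of the 102 passed at 0.05, with a smallest adjusted p of 0.166, and 0 of all genes passed. With the values as deposited, where the median of all genes was 0.063, the median of the 102 genes was 0.146 and 45 were higher at an unadjusted p under 0.05; with the 2 groups alone in the fit, 16 were. The differences behind these counts ran from -0.23 to 0.35, with a median standard error of 0.065 for a pair of groups. In whole tissue, fewer cells that express a gene and less RNA of it per cell cannot be told apart.

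Each array was summarised by the median deviation of the 102 genes from their own means over the 15 arrays. It was 0.044, 0.075 and 0.076 in the 3 SSM arrays, and between -0.053 and 0.024 in the other 12. The SSM arrays did not overlap with any other group. CC gave -0.041, 0.024 and 0.016, MSS 0.0056, -0.012 and -0.053, MSM 0.012, -0.030 and -0.033, and SSS 0.010, 0.0013 and -0.011, so these 4 groups overlapped with each other. SSM arrays also stood above the others with the values as deposited, with quantile normalization and with another centring, although the size differed. As deposited, the median deviation of all genes was 0.15 in SSM replicate 3 and between -0.020 and -0.0031 in the other arrays. That array was then the highest for 73 of the 102 genes. On the main scale, 91 of the 102 genes were above their own mean in SSM replicate 2, 79 in replicate 3 and 66 in replicate 1. This compares with 21 in MSS replicate 3 and 23 in CC replicate 1. An SSM array was the highest of all 15 for 55 of the 102 genes, compared with 29.7% of all genes, and the lowest for 7. The lowest array was an MSS array for 38 genes and an MSM array for 31, while over all genes it was an MSS array for 15.2%, an MSM array for 28.2% and an SSM array for 27.2%.

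**Figure D1:**
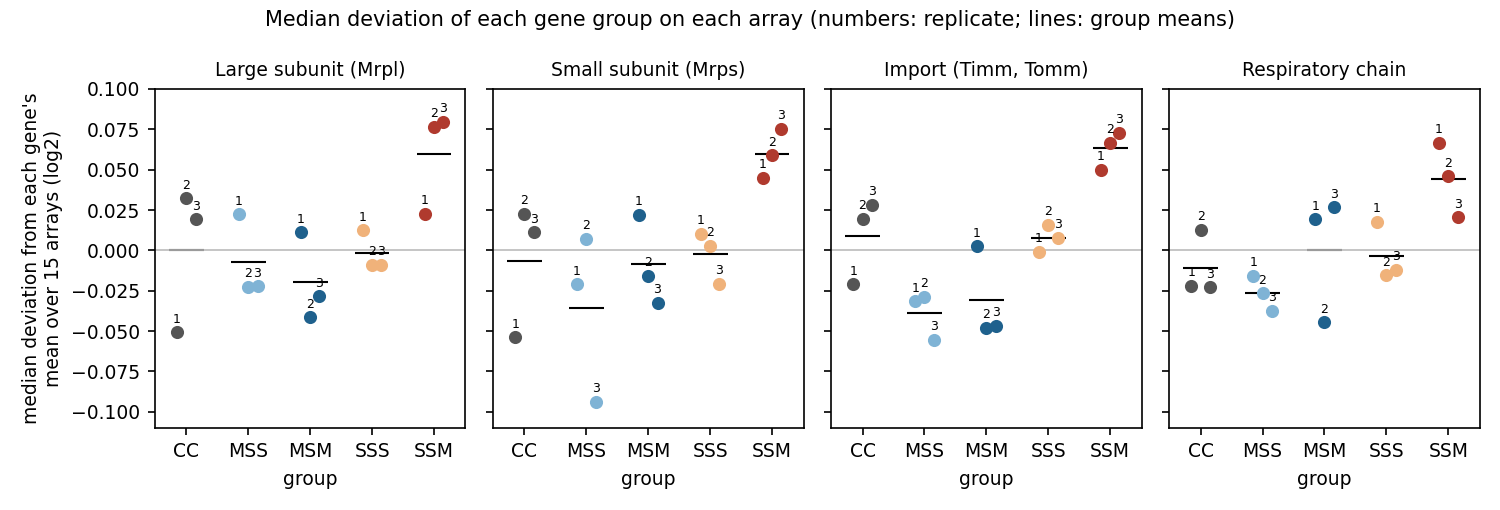
Median log2 deviation of each gene group from the genes' own means (y axis) on each of the 15 arrays (points, numbered by replicate) in the 5 groups (x axis), with group means as lines, for the large subunit, the small subunit, the import genes and, for comparison, respiratory chain genes. The import points of SSM lie between 0.050 and 0.073 and those of the small subunit between 0.045 and 0.075, above all other arrays, while SSM replicate 1 lies at 0.023 for the large subunit, below CC replicate 2 at 0.032.

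The pattern was shared by both ribosomal subunits and by the import genes. The median deviation of the 48 large subunit genes was 0.060 ± 0.032 (SD, n = 3) in SSM and that of the 29 small subunit genes 0.060 ± 0.015 (SD, n = 3). For the 25 Timm and Tomm genes it was 0.063 ± 0.012 (SD, n = 3). In MSS the corresponding means were -0.0075, -0.036 and -0.039, and in MSM -0.020, -0.0087 and -0.031.

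Nuclear-retained RNAs, taken here as a possible sign of RNA quality, had lower means in SSM and under severe stress. Of 8 listed nuclear-retained or long non-coding RNAs 5 were measured, and their mean level was between 2.05 and 2.20 in SSM, between 1.80 and 2.57 in SSS and between 2.44 and 2.89 in the other 9 arrays. The lowest value, 1.80, was that of SSS replicate 1, where the median deviation of the 102 genes was 0.010, and the SSM arrays came next. The part of these RNAs, or of RNA quality, in the difference was not tested. Striatal markers were high in SSM replicate 1 alone of its group, and this array also had the highest means of myelin markers (1.80) and microglial markers (1.48) of all 15 arrays and the second-lowest mean of hippocampal neuron markers (2.82). In SSM against MSM, 6 of 6 striatal and 6 of 6 microglial markers had the higher mean in SSM, and 1 of 7 myelin markers did. Their part in the difference was not tested. Without SSM replicate 1 and MSM replicate 3 the median difference of SSM from MSM was 0.077, with 23 genes higher at an unadjusted p under 0.05.

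**Figure D2:**
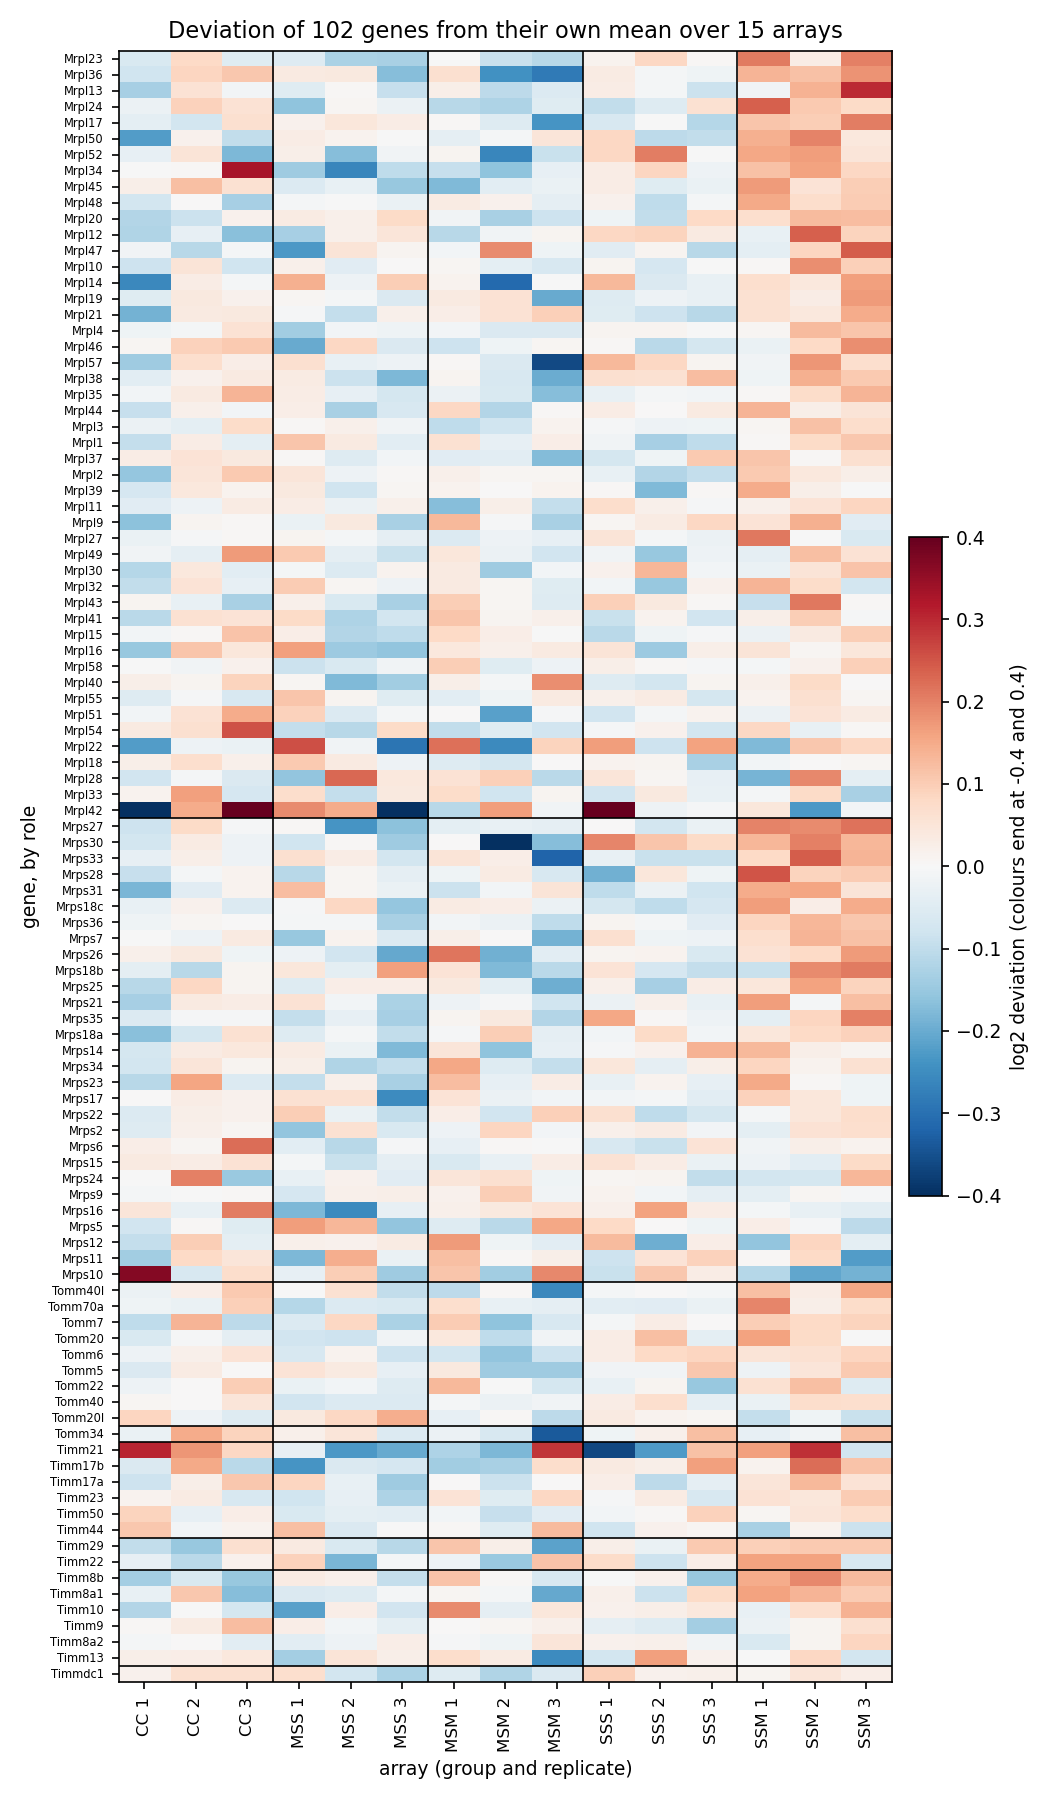
Log2 deviation of each of the 102 genes (rows, grouped by role from the large subunit at the top to Timmdc1 at the bottom, and within a role by the SSM mean relative to the other groups) from its own mean on each of the 15 arrays (columns), red above and blue below, with colours ending at -0.4 and 0.4. The 3 SSM columns on the right are red over most rows of every role, and Mrps10, the last row of the small subunit, is blue in them.

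The 4 genes with the smallest p in an F-test over all 5 groups were Mrps27, Mrps30, Timm8b and Mrpl34. Mrps27 is a pentatricopeptide-repeat protein of the small subunit. Mrps30 carries a small subunit symbol, although structures of the mammalian ribosome place the protein in the large subunit. Timm8b belongs to the small chaperones that escort hydrophobic proteins between the membranes, and Mrpl34 is a large subunit protein with a bacterial counterpart. Their promoters are shown because nuclear genes of mitochondria are known to be controlled through sites for ETS family factors, nuclear respiratory factor 1 and YY1. Each window runs from 250 bases before to 50 bases after the annotated start in RefSeq's GRCm38.p6, 5′ to 3′ on the gene's strand, and capitals mark the matches to the motifs searched. The windows are chr13:99344536-99344835 on the plus strand for Mrps27, chr13:118387203-118387502 on the minus strand for Mrps30, chr9:50603651-50603950 on the plus strand for Timm8b and chr8:71464676-71464975 on the plus strand for Mrpl34.
Mrps27: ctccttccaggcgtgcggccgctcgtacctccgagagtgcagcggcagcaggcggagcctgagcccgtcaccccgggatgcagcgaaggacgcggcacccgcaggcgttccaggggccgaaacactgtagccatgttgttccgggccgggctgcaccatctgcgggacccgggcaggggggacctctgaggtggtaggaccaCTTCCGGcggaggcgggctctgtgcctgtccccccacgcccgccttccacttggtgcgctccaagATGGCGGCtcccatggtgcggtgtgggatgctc
Mrps30: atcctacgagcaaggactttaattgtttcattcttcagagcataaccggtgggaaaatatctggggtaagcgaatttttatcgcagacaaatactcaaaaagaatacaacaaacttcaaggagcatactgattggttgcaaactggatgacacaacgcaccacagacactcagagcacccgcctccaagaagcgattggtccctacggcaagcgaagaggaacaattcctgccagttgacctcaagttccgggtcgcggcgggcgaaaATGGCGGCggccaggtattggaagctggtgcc
Timm8b: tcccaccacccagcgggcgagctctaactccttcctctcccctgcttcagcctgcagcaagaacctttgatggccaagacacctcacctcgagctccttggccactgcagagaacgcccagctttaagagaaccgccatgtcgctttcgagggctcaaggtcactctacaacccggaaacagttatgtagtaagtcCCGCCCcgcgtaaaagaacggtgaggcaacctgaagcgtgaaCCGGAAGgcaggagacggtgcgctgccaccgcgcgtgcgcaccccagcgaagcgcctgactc
Mrpl34: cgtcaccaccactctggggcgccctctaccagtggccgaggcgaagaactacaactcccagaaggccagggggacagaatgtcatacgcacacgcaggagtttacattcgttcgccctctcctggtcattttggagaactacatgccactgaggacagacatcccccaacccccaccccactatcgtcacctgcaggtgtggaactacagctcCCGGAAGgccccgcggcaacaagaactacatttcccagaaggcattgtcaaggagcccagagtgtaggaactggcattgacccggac
In Mrps27 and Mrps30 the YY1 core ATGGCGGC begins at base 18 and at base 19, counting the start as the first base. The ETS core CCGGAAG begins 12 bases before the start in Timm8b and 37 bases before it in Mrpl34, and lies on the other strand, as CTTCCGG, 48 bases before the start in Mrps27. Timm8b also holds a GC box, GGGCGG, on the other strand as CCGCCC.

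Promoter windows were at hand for 90 of the 102 genes, and both strands were searched. The ETS core was found in 34 of them (37.8%) and in 13.6% of the 15563 promoters of array genes. The YY1 core was in 13 (14.4%) against 3.74%: those of Mrpl22, Mrpl27, Mrpl35, Mrpl37, Mrpl50, Mrpl9, Mrps11, Mrps18a, Mrps27, Mrps30, Mrps5, Timm44 and Timm50. The nuclear respiratory factor 1 core GCATGCGC was in 9 of the 90, and in 4.29% of all promoters. GC boxes were in 44 (48.9% against 53.0%), and the cAMP response element TGACGTCA was in 2 (2.22% against 2.72%). The median difference of SSM from MSM was 0.095 for genes with the ETS core and 0.083 for those without, 0.085 with and 0.094 without the YY1 core, and 0.052 with and 0.094 without the nuclear respiratory factor 1 core. The letters of the YY1 core were shortened after the data were seen. A match describes letters in the window and is no evidence of a bound factor. No window was listed for Mrpl13, Mrpl15, Mrpl19, Mrpl38, Mrpl4, Mrpl54, Mrps28, Mrps34, Mrps35, Timm21, Tomm40l and Tomm7.

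Among the genes with small subunit symbols, 22 of 29 had the higher mean in SSM than in MSM, with a median of 0.053. At an unadjusted p under 0.05, 7 were higher, against 6.36% of all genes. Mrps27 was at 1.09, 1.08 and 1.11 in SSM. It was at 0.81, 0.97 and 0.89 in CC, at 0.90, 0.66 and 0.73 in MSS, at 0.86 in each MSM array, and at 0.90, 0.82 and 0.87 in SSS. All 3 SSM arrays lay above every other array, and the other groups overlapped. Mrps27 was higher in SSM than in MSM by 0.24 ± 0.061 (SE), or 1.18-fold, with an unadjusted p of 0.0016 and an adjusted p of 0.187 in limma. It was higher than in SSS by 0.23 ± 0.061 (unadjusted p = 0.0017, adjusted p = 0.757).

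In Mrps30 the treated groups separated by stress level. Its levels were 0.57, 0.49 and 0.45 in SSS and 0.51, 0.58 and 0.51 in SSM. In the mild groups they were 0.30, 0.38 and 0.23 in MSS and 0.38, -0.04 and 0.20 in MSM, and in CC 0.30, 0.41 and 0.35. The 6 severe-stress arrays lay above the 6 mild-stress arrays and the 3 CC arrays without overlap, and MSM replicate 2 was the lowest. Averaged over saline and morphine, the severe groups were higher than the mild groups by 0.27 ± 0.058 (SE), with an unadjusted p of 0.00035. Its adjusted p of 0.0787 was the smallest of any of the 102 genes in any of the 11 comparisons.

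Mrps36 and Mrps28 also had their SSM arrays apart from the other groups. The share of all genes with such a separation, of SSM or of severe from mild stress, is not given. An SSM array was the highest for 29.7% of all genes. Separations of single genes, here, above and below, are therefore not read as particular to this group of genes. Mrps36, whose product is now also described as a subunit of the oxoglutarate dehydrogenase complex, was at -1.15, -1.10 and -1.13 in SSM and between -1.37 and -1.23 in all other arrays. Mrps28 was at 0.32, 0.16 and 0.17 in SSM, above the other arrays, which reached 0.12. Mrps10, the counterpart of a bacterial small subunit protein, ran the other way, with -0.14, -0.24 and -0.22 in SSM against 0.34, -0.09 and 0.04 in CC. It did not overlap with CC, but it overlapped with MSS and MSM. It was lower in SSM than in CC by a difference of -0.30 ± 0.11 (SE; unadjusted p = 0.015, adjusted p = 0.672) and its mean was also lower than in MSM (-0.23 ± 0.11). The other 6 genes with a lower mean in SSM than in MSM were Mrps11 (-0.097 ± 0.094), Mrps12 (-0.073 ± 0.087), Mrps16 (-0.064 ± 0.068), Mrps9 (-0.045 ± 0.046), Mrps24 (-0.036 ± 0.080) and Mrps5 (-0.026 ± 0.084). The signs of Mrps9, Mrps24 and Mrps5 turned under another scaling.

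**Figure D3:**
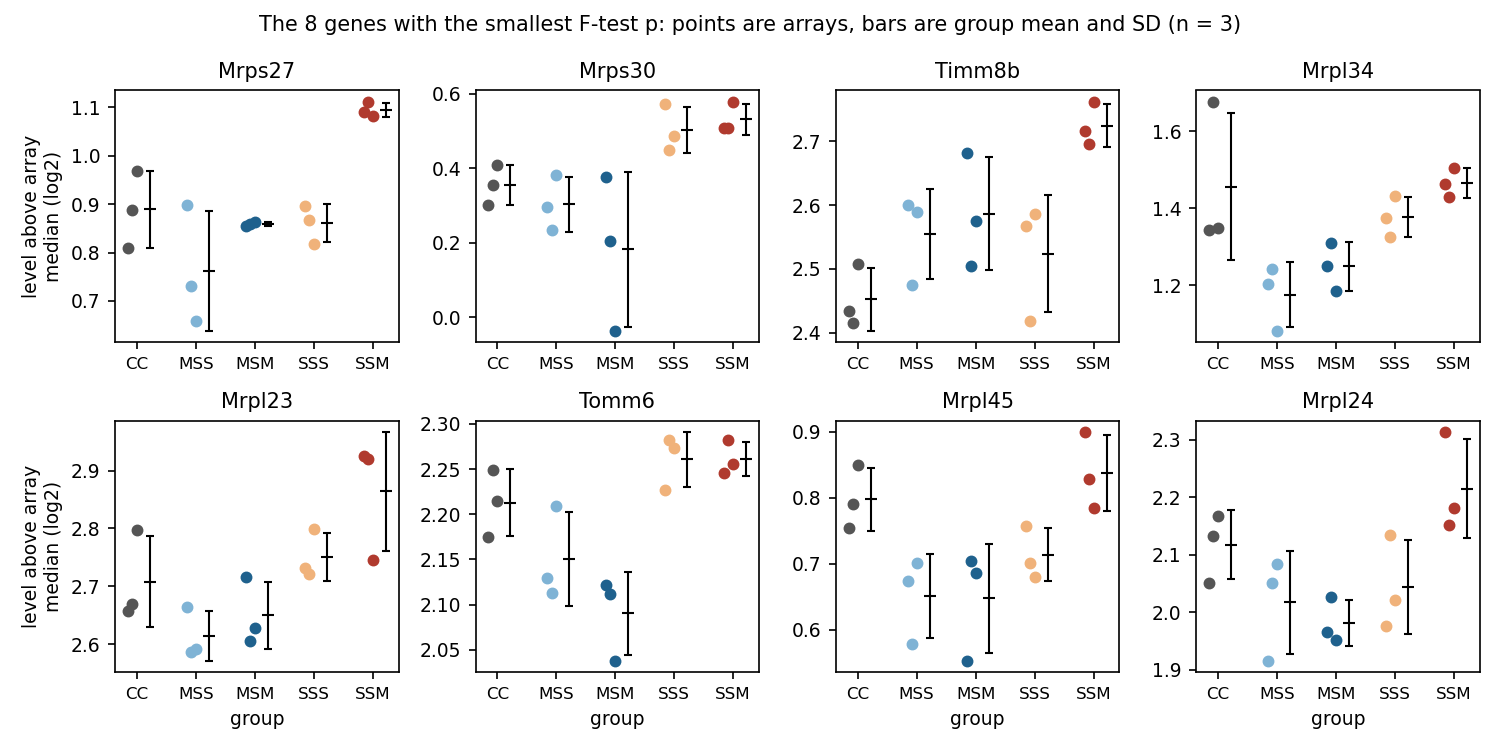
Level above the array median (log2, y axis; scales differ between panels) of the 8 genes with the smallest F-test p on each of the 15 arrays (points) by group (x axis), with group mean and SD (n = 3). For Mrps27 and Timm8b the 3 SSM points lie above all others, and for Mrps30, Mrpl23 and Tomm6 both severe-stress groups lie above both mild-stress groups.

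The large subunit, the largest role group, gave the most genes at low p-values. In SSM against MSM 42 of its 48 genes had the higher mean, with a median of 0.094. At an unadjusted p under 0.05, 17 were higher, against 6.36% of all genes. In the F-test over all 5 groups, 16.7% of its genes and 17.2% of the small subunit genes had an unadjusted p under 0.05. Mrpl17, Mrpl23, Mrpl24 and Mrpl45 all encode proteins near the exit of the tunnel through which the new chain leaves, and Mrpl45 helps to hold the ribosome at the inner membrane. Mrpl24 was at 2.31, 2.18 and 2.15 in SSM and at 1.97, 1.95 and 2.03 in MSM, which did not overlap, while CC was at 2.05, 2.17 and 2.13. The difference of SSM from MSM was 0.23 ± 0.064 (SE; unadjusted p = 0.0025, adjusted p = 0.200). Mrpl45 was at 0.90, 0.78 and 0.83 in SSM and at 0.55, 0.69 and 0.70 in MSM, a difference of 0.19 ± 0.056 (SE; unadjusted p = 0.0047, adjusted p = 0.246). Here CC, at 0.75, 0.85 and 0.79, overlapped with SSM and lay above both mild-stress groups.

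Mrpl23 also separated by stress level. It was at 2.93, 2.75 and 2.92 in SSM and at 2.73, 2.80 and 2.72 in SSS, above 2.66, 2.59 and 2.59 in MSS and 2.72, 2.63 and 2.61 in MSM, with CC between 2.66 and 2.80. The 6 severe-stress arrays lay above the 6 mild-stress arrays, by a small margin, and both overlapped with CC. The averaged difference was 0.18 ± 0.043 (SE; unadjusted p = 0.0011, adjusted p = 0.117), and the second probe set of Mrpl23 had the same sign in all 11 comparisons. Mrpl34 was at 1.46, 1.51 and 1.43 in SSM and 1.38, 1.43 and 1.33 in SSS, against 1.20, 1.08 and 1.24 in MSS and 1.25, 1.19 and 1.31 in MSM. Severe stress was higher without overlap, by 0.21 ± 0.056 (SE; unadjusted p = 0.0023, adjusted p = 0.156), and CC, at 1.34, 1.35 and 1.68, overlapped with both severe-stress groups.

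Mrpl17 and Mrpl36 had their highest group mean in SSM. Mrpl17 was at 1.00, 0.98 and 1.09 in SSM, above every other array, the highest of which was 0.95 in CC. Its difference of SSM from MSM was 0.23 ± 0.064 (SE; unadjusted p = 0.0025, adjusted p = 0.200). Mrpl36, a short protein with a bacterial counterpart, was at 1.22, 1.20 and 1.26 in SSM, and MSM ranged from 0.80 to 1.14. That difference was 0.30 ± 0.086 (SE; unadjusted p = 0.0037, adjusted p = 0.230), and the level of CC ranged from 1.00 to 1.19. Mrpl48 and Mrpl50, which have no bacterial counterpart, were higher in SSM than in CC by 0.17 ± 0.051 and 0.23 ± 0.069 (SE; adjusted p = 0.544 and 0.569).

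**Figure D4:**
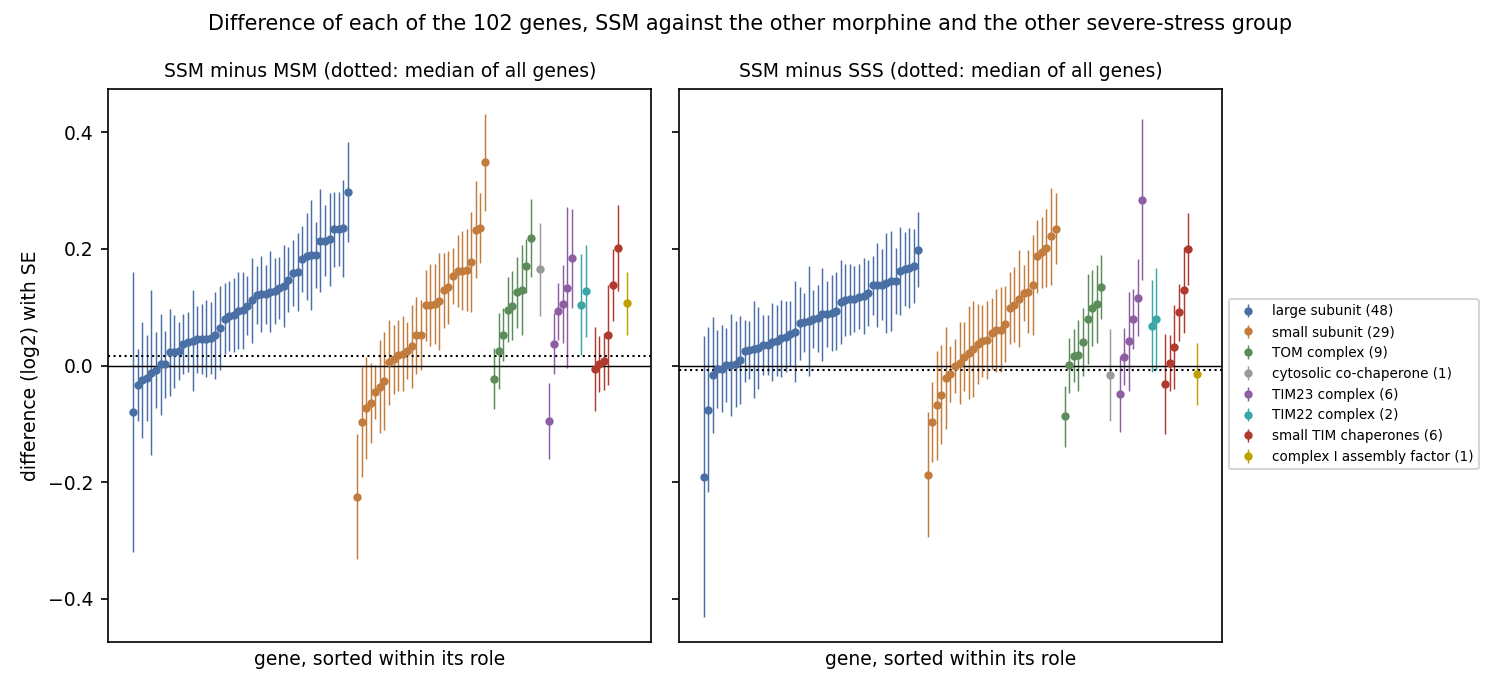
Difference in log2 level of each of the 102 genes (points, with SE) between SSM and MSM (left) and between SSM and SSS (right), sorted within each role; the x axis is the order of genes, the solid line is 0 and the dotted line the median of all 19938 genes. In the left panel 86 points lie above 0 and in the right panel 85, and the lowest point of the small subunit, at -0.23 and at -0.19, is Mrps10.

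Import genes are given complex by complex. In the TOM complex 8 of 9 genes had the higher mean in SSM than in MSM, with a median of 0.10, and Tomm6 and Tomm40l were higher at an unadjusted p under 0.05. Tomm6, a small subunit that stabilises the TOM core, was at 2.25, 2.26 and 2.28 in SSM and 2.23, 2.27 and 2.28 in SSS. It was at 2.13, 2.21 and 2.11 in MSS, at 2.12, 2.04 and 2.11 in MSM, and at 2.17, 2.21 and 2.25 in CC. Severe stress lay above mild stress without overlap, by 0.14 ± 0.033 (SE; unadjusted p = 0.00078, adjusted p = 0.109), and SSM and SSS did not differ beyond their spread (0.00026 ± 0.047).

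Differences of SSM from MSM were small in the main parts of the outer membrane machine. They were 0.053 ± 0.046 (SE) for Tomm40, the channel, 0.024 ± 0.065 for Tomm22, its central receptor, 0.10 ± 0.058 for Tomm20, the presequence receptor, and 0.096 ± 0.055 for Tomm70a, the receptor for carrier proteins. Tomm40l, a close relative of the channel protein, had the highest value of the complex, 0.22 ± 0.067 (unadjusted p = 0.0055, adjusted p = 0.254). Tomm20l, a relative of Tomm20 whose level of -1.48 to -1.32 in the group means was below the median of all genes, had the lower mean in both morphine groups. Over both stress levels morphine differed from saline by -0.11 ± 0.037 for this gene (unadjusted p = 0.0093, adjusted p = 0.702).

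In the TIM23 complex 5 of 6 genes had the higher mean in SSM than in MSM. Timm17b, one form of a channel subunit, differed by 0.18 ± 0.085 (SE; unadjusted p = 0.047), Timm17a, the other form, by 0.11 ± 0.066, Timm23, the partner of both, by 0.038 ± 0.052 and Timm50, the receptor, by 0.093 ± 0.049. Timm44, which ties the import motor to the channel, was the exception, at -0.095 ± 0.065. Timm21, which passes imported subunits on to respiratory chain assembly, was uneven between pups: 1.25, 1.12 and 1.03 in CC, 0.92, 0.72 and 0.75 in MSS, 0.82, 0.77 and 1.23 in MSM, 0.58, 0.72 and 1.07 in SSS and 1.11, 1.24 and 0.87 in SSM. Only MSS was clear of CC, at -0.34 ± 0.14 (SE; unadjusted p = 0.027, adjusted p = 0.999). The difference of SSS from CC was likewise -0.34 ± 0.14, but SSS replicate 3, at 1.07, lay within the range of CC. In the TIM22 complex Timm22, the carrier channel, differed between SSM and MSM by 0.10 ± 0.087 and Timm29, its partner, by 0.13 ± 0.079.

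Of the small TIM chaperones Timm8a1 and Timm8b had the highest differences of SSM from MSM, 0.20 and 0.14. Timm8b was at 2.72, 2.76 and 2.70 in SSM, above all other arrays, the highest of which was 2.68 in MSM, and at 2.43, 2.51 and 2.42 in CC. Its difference of SSM from CC, 0.27 ± 0.062 (SE) or 1.21-fold, had an unadjusted p of 0.0006 and an adjusted p of 0.544. Timm8a1, whose human counterpart is mutated in deafness-dystonia syndrome, differed between SSM and MSM by 0.20 ± 0.074 (unadjusted p = 0.016). By contrast Timm9 and Timm10, which form the chaperone of the carrier pathway, differed by 0.0072 ± 0.049 and -0.0063 ± 0.072, with signs that turned under another scaling. Timm13, the partner of the Timm8 proteins, differed by 0.052 ± 0.086, and Timm8a2 by 0.0022 ± 0.048, the last with a sign that also turned.

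SSM was also compared with its other neighbours, and since these comparisons share the SSM arrays they are set side by side and not counted against each other. Against SSS, which had the same stress with saline, the median difference of the 102 genes was 0.065, with 85 genes higher and a median of -0.0082 over all genes. At an unadjusted p under 0.05, 17 genes were higher and 0 lower, against 2.61% and 3.88% of all genes, and 0 passed adjustment in limma (smallest adjusted p = 0.757). The mean was higher in SSM than in SSS for 7 of 7 myelin (median 0.51), 6 of 6 striatal (1.11), 6 of 6 microglial (0.14) and 1 of 7 hippocampal neuron markers (-0.24), and their part in the difference was not tested. Without SSM replicate 1 and MSM replicate 3 the median of the 102 genes was 0.071, with 16 higher at an unadjusted p under 0.05. The count of 17 was 10 without SSS replicate 2 and 7 without the 3 arrays low in choroid plexus RNA. Mrps18c, at 2.98, 2.84 and 2.96 in SSM and 2.74, 2.71 and 2.74 in SSS, was among the 17, with a difference of 0.19 ± 0.060 (SE). Against CC the median was 0.064, with 81 genes higher, 0.0056 over all genes, and 16 higher and 1 lower at an unadjusted p under 0.05, against 2.67% and 3.36% of all genes. In limma 0 passed adjustment (smallest adjusted p = 0.544). The 16 became 6 without CC replicate 1, where the mean of the striatal markers was 2.20. For SSM against MSM the 29 genes became 18 without MSM replicate 3 and 19 without SSM replicate 2.

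Among the titles' SS numbers, whose meaning is not stated, number 8 held SSM replicate 1 and SSS replicate 3. SSM replicate 1 was the array with the highest means of striatal and of myelin markers. Between the arrays of number 8, the median difference of SSM from SSS over the 102 genes was 0.048, with 68 genes higher. The median of all genes was -0.017, with 43.3% higher. Untreated, mild-stress and severe-stress arrays shared no SS number with each other. In every comparison with CC or between stress levels, SSM against MSM and the averaged severity difference included, the number and the group cannot be told apart. MSM and MSS both lay within number 11. SSM replicates 2 and 3 carried number 9, and SSS replicates 1 and 2 carried number 10. Outside number 8, the number and the group therefore cannot be told apart in SSM against SSS. The averaged morphine difference and the difference between both morphine effects include that comparison.

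Averaged over saline and morphine, severe stress was higher than mild stress by a median of 0.060 over the 102 genes, with 83 higher, against 0.0099 over all genes. At an unadjusted p under 0.05, 23 were higher and 0 lower, against 5.73% and 5.02% of all genes, and in limma 0 of the 102 passed adjustment while 17 of all genes did (0.0853%). Of the 5 nuclear-retained RNAs measured, 1 had the higher mean under severe stress, with a median difference of -0.68, and their mean level was 2.26 in SSS and 2.11 in SSM against 2.72 in both MSS and MSM. The exception was Xist, at a level between -2.20 and -1.95 on all arrays of these male pups, while Malat1, Meg3, Snhg11 and Rian had the lower mean. The part of these RNAs in the difference was not tested. With saline alone, that is between SSS and MSS, the median was 0.023, with 64 genes higher and 7 genes higher and 0 lower at an unadjusted p under 0.05, against 1.53% and 2.26% of all genes (0 after adjustment in limma). With quantile normalization that split was 5 higher and 1 lower. Mrps16, a bacterial-type small subunit protein, had the smallest p there, at 2.00, 2.13 and 2.00 in SSS against 1.79, 1.72 and 1.94 in MSS, a difference of 0.23 ± 0.068 (SE; unadjusted p = 0.0052, adjusted p above 0.99).

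Averaged over stress levels, the morphine groups had the higher mean than the saline groups for 77 genes, with a median of 0.043 against -0.015 over all genes. At an unadjusted p under 0.05, 11 were higher and 1 lower, against 2.22% and 4.7% of all genes, and 0 passed adjustment in limma (smallest adjusted p = 0.702). Without MSS replicate 3 the 11 became 6. Mrps27 was first, at 0.17 ± 0.043 (SE), and Mrpl21 at 0.13 ± 0.044, Mrpl40 at 0.12 ± 0.044 and Tomm70a at 0.11 ± 0.039 came after it among the higher genes. Under mild stress alone the median difference of morphine from saline was 0.0088, with 56 genes higher. There 3 genes were higher and 1 lower at an unadjusted p under 0.05, against 1.06% and 2.82% of all genes (0 after adjustment in limma), and with the values as deposited 2 were higher and 0 lower. The difference between both morphine effects had a median of 0.063, with 8 genes above and 1 below 0 at an unadjusted p under 0.05, against 2.18% and 1.32% of all genes, and 0 after adjustment (limma, smallest adjusted p = 0.996). Averaged over stress levels, morphine had the higher mean for 8 of 8 choroid plexus markers (median 0.67) and 6 of 6 striatal markers (0.73). The same held for 7 of 7 myelin (0.56), 7 of 8 thalamic (0.20), 6 of 6 microglial (0.049) and 0 of 7 hippocampal neuron markers (-0.27). The arrays low in choroid plexus RNA all had saline. The part of these markers in the differences was not tested.

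The groups other than SSM lay near or a little below CC. For MSS the median difference from CC was -0.028 (0.0087 over all genes), 32 genes had the higher mean, and 0 were higher and 7 lower at an unadjusted p under 0.05, against 2.09% and 1.24% of all genes. The lower genes were led by Mrpl34 (-0.28 ± 0.080 SE), Mrps16 (-0.23 ± 0.068) and Mrpl45 (-0.15 ± 0.056), and 4 were left without CC replicate 3, and likewise without MSS replicate 2 or MSS replicate 3. For MSM the median was -0.017 (-0.011 over all genes), with 1 gene higher and 10 lower against 1.53% and 2.26% of all genes. With the values as deposited 1 was higher and 4 lower, and on the main scale the 10 became 2 without CC replicate 3 and 4 without CC replicate 2. Mrpl54 (-0.19 ± 0.067), Tomm34 (-0.21 ± 0.079), Mrpl45 (-0.15 ± 0.056) and Tomm6 (-0.12 ± 0.047) led the lower genes. For SSS the median was -0.0034 (0.011 over all genes), with 1 gene higher, Mrpl12 of the ribosomal stalk (0.18 ± 0.071), and 2 lower, Timm9 (-0.13 ± 0.049) and Timm21 (-0.34 ± 0.14), against 1.61% and 1.25% of all genes. In limma 0 of the 102 genes passed adjustment in each of these 3 comparisons, all of which use the same CC arrays. Without MSM replicate 2 the MSM median was 0.0027.

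Other groups of genes give a scale for these medians. In SSM against MSM the median was 0.043 for 89 respiratory chain and ATP synthase genes, 0.059 for 40 proteasome genes, 0.020 for 63 genes of the cytosolic ribosome and 0.029 for all 9964 genes above the median level. At an unadjusted p under 0.05, 12 respiratory chain genes (13.5%), 3 proteasome genes (7.5%) and 1 cytosolic ribosome gene (1.59%) were higher, compared with 28.4% of the 102 genes and 9.36% of the genes above the median level. Against SSS the respiratory chain median, 0.056, was close to the 0.065 of the 102 genes, and against CC, 0.058 was close to 0.064. With an F-test over the 5 groups, 15 of the 102 genes (14.7%) had an unadjusted p under 0.05, compared with 6.43% of all genes and 8.33% of those above the median level, and 0 passed adjustment in limma (smallest adjusted p = 0.423). The share was 10.1% for the respiratory chain, 2.5% for the proteasome and 0% for the cytosolic ribosome. Among the lists described below it was 25% of 16 tRNA synthetases, 23.1% of 13 translation factors and 15.8% of 19 import partners. It was 6.25% for transcription and DNA maintenance, 4% for assembly and RNA processing, and 0% for proteases and for ribosomal proteins named otherwise.

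**Figure D5:**
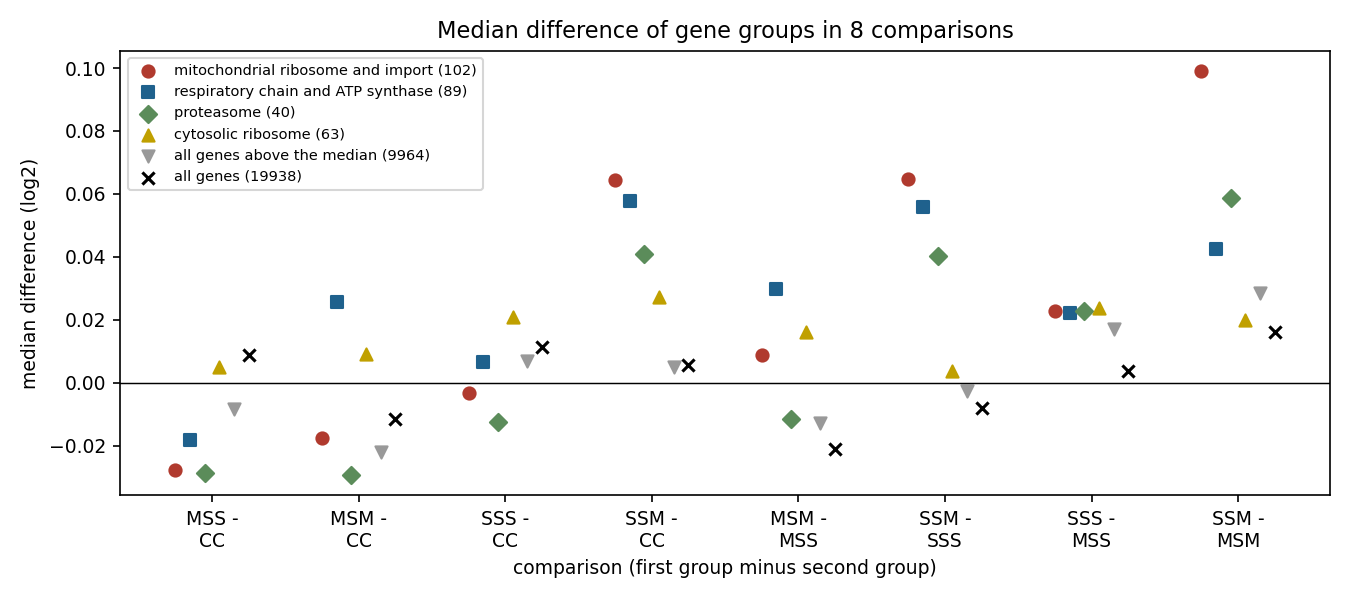
Median log2 difference (y axis) of the 102 genes and of 5 other sets of genes (symbols) in 8 comparisons (x axis, first group minus second group). The 102 genes have the highest median of the 6 sets in the 3 comparisons that involve SSM, at 0.064 (CC), 0.065 (SSS) and 0.099 (MSM), and are at or below 0 for the other groups against CC.

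Genes that work with the mitochondrial ribosome and the import machines, but lie outside the name rule, were taken from lists. These lists were chosen with earlier results of these data known. Of 25 genes for ribosome assembly and mitochondrial RNA processing, 17 had the higher mean in SSM than in MSM, and 3 were higher and 0 lower at an unadjusted p under 0.05. Over all genes these shares were 6.36% and 4.93%. In the F-test the list was headed by Ddx28, an RNA helicase of large subunit assembly (0.16 ± 0.052), with Noa1 (0.16 ± 0.077), a GTPase, and Hsd17b10, a subunit of the mitochondrial RNase P (0.16 ± 0.066). Among 13 translation factors 2 were higher and 1 lower. Mrrf, the ribosome recycling factor, was higher by 0.30 ± 0.077 and Tufm, the elongation factor that delivers tRNAs, by 0.14 ± 0.046, while Guf1, a back-translocating GTPase, was lower, at -0.35 ± 0.098 (unadjusted p = 0.0014, 0.0098 and 0.0031).

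For the 16 tRNA synthetases 1 was higher and 0 lower. Nars2 (0.093 ± 0.068), Yars2 (0.067 ± 0.067) and Hars2 (-0.13 ± 0.076) had the smallest F-test p-values among them. Of 16 genes for mitochondrial transcription and DNA maintenance 2 were higher and 1 lower. Gabpa, an ETS family factor that acts on nuclear genes of mitochondria, was at 0.18 ± 0.059 (unadjusted p = 0.0071), Ssbp1, which binds single-stranded mitochondrial DNA, at -0.15 ± 0.055 and Tfb1m, an rRNA methyltransferase, at 0.11 ± 0.085. Of 19 import partners 2 were higher and 1 lower, and Mtx3, an outer membrane metaxin, was at -0.35 ± 0.11, its relative Mtx2 at 0.071 ± 0.067 and Dnajc15, a co-chaperone of the import motor, at -0.010 ± 0.076. Of 14 presequence and inner membrane proteases 2 were higher and 0 lower, with Pmpcb, a subunit of the presequence peptidase, at 0.15 ± 0.062, Clpx at -0.11 ± 0.054 and Phb2 at 0.032 ± 0.057. The 4 ribosomal proteins named otherwise had a median of 0.035, with Chchd1 at 0.080 ± 0.081, Dap3 at 0.067 ± 0.083 and Gadd45gip1 at 0.00012 ± 0.057, and 0 of them had an unadjusted p under 0.05. All of these are differences of SSM from MSM on the log2 scale with SE, and 0 genes of the lists passed adjustment in limma. Of all genes 6.36% were higher and 4.93% lower at an unadjusted p under 0.05. The counts of these small lists were not tested against those shares.

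Precision differed between members. The SD within groups was 0.036 for Tomm40, 0.038 for Mrps9, 0.039 for Tomm6 and 0.042 for Timm8a2, the lowest of the 102 genes, and 0.34 for Mrpl42, 0.20 for Mrpl22, 0.19 for Timm21 and 0.14 for Mrps10, the highest. Mrpl42 ranged from -0.71 to 0.41 over the 15 arrays, so that a difference of the size seen for Mrps27 could not be told from its spread. For 12 genes several probe sets were on the array. Those of Mrpl23, Mrps33 and Mrps36 had the same sign in all 11 comparisons, whereas the signs differed in 8 comparisons for Mrps5, 6 for Mrpl27, 5 for Mrpl51, 4 for Mrpl41, 2 for Tomm20 and 1 each for Mrpl47, Timm17a, Timm23 and Timm8a1. In Mrpl51 the unused probe set gave SSM above CC by 0.34 and the brightest one gave -0.045. At the other end of the level scale the signal of Timm8a2, at -2.59, and that of Tomm20l were below the median of all genes throughout.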

How the data were processed

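The deposited table holds log2 values for 35557 probe sets on 15 arrays, made by the authors with RMA, per the submitters' processing notes; no software version is stated. All 15 columns matched a sample and 0 were left unused. The platform annotation gave 1 symbol for 21789 probe sets, several for 1621 and none for 12147, and single-symbol probe sets gave 19938 genes (brightest over all arrays). All 102 members matched RefSeq by Entrez ID.

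Each array's median over all genes was subtracted, with no filter on dim genes. In R 4.3.3, limma 3.58.1 fitted one mean per group (lmFit, eBayes; 10 residual and 4.04 prior degrees of freedom), with two-sided tests, Benjamini-Hochberg adjustment over all genes and a threshold of 0.05. There were 11 comparisons and an F-test. Tested on simulated SSM and MSM data with 200 changed genes, this recovered 1.2% at 1.1-fold, 44.2% at 1.25-fold and 86% at 1.5-fold, with 5.8 false calls on average. Genes were drawn independently there, without shifts shared by the genes of an array. The number of arrays limits the precision.

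Members and lists were chosen with earlier results of these data known, so no p-value was computed for the members as a set. Genes were named by rule: the 4 smallest p-values in each direction of a comparison, the 8 smallest F-test p-values, the highest and lowest level per role and SD, disagreeing probe sets, and 3 genes per outside list. Genes beyond these, such as the main parts of the import complexes, were named for their role or after their values were seen. Alternatives were the scaling, the mean of probe sets, a filter on dim genes, the SS number as a random block, a fit on the compared groups only, and arrays left out.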

Additional observations from a re-analysis of the deposited data

Results flagged for a closer look

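In 3 genes the groups compared did not overlap at either level of the other factor, and the directions at those levels were opposite. This held for 2 of the 102 genes between morphine and saline, against 0.246% of all genes, and for 3 between severe and mild stress, against 0.226%. For Mrpl17, morphine differed from saline by -0.13 under mild stress and by 0.20 under severe stress, and severe from mild stress by -0.090 with saline and by 0.23 with morphine. The difference of those differences was 0.33 ± 0.090 on the log2 scale (SE; unadjusted p = 0.0029, adjusted p = 0.996 in limma). For Mrps16 the signs were turned: morphine differed by 0.19 under mild and by -0.097 under severe stress, and severity by 0.23 with saline and by -0.064 with morphine. That difference of differences was -0.29 ± 0.097 (unadjusted p = 0.0094, adjusted p = 0.996). For Mrpl2, severe differed from mild stress by -0.092 with saline and by 0.045 with morphine, a difference of 0.14 ± 0.086 (unadjusted p = 0.131, adjusted p = 0.996). In limma the difference of differences passed adjustment for 0 of the 3 genes. Groups of 3 arrays were too small for a search for outlying arrays.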

How the results depend on the processing

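Over 24 alternatives (22 for the F-test), 0 of the 102 genes passed adjustment in any comparison, and the smallest adjusted p was 0.0605. In simulated data with 3 arrays per group and genes drawn independently, 1.2% of changes of 1.1-fold were recovered. The number of arrays was not varied there, so its part in what passed was not tested. No paired analysis was possible because the H numbers in the titles, whose meaning is not stated, run on through MSM and MSS within 1 SS number and pair no arrays. With the values as deposited, medians were 0.121 for SSM against CC, 0.129 against SSS and 0.146 against MSM, 0.0857 for morphine, 0.0852 for severity and 0.106 for the interaction, and counts of genes higher at an unadjusted p under 0.05 were 33, 40, 45 and 29 for the first 4. All genes in SSM against MSM then split into 2408 higher and 450 lower, compared with 1268 and 982. For the other counts under an alternative, here and above, the share over all genes is not given. Those counts are therefore not read as results about the 102 genes. As deposited, SSM replicate 3 lay above the other arrays over all genes, with a median deviation of 0.15. MSM against CC had 4 lower. Quantile normalization gave a median of 0.0669 for SSM against MSM, and another centring gave 18 genes for morphine. The SS number as a block gave 10 for SSM against CC, 15 for severity, and 6 and 4 lower for MSM and MSS against CC. The compared groups alone gave 16 for SSM against MSM, and 5 and 4 lower for MSM and MSS against CC. Without the 3 arrays low in choroid plexus RNA, which leaves 1 MSS array assumed to vary like the other groups, counts were 7 for SSM against SSS, 15 for severity and 3 lower for MSS against CC, and medians were -0.062 for MSS against CC and 0.0525 for SSS against MSS. Leaving out 1 array at a time, counts ranged from 6 to 18 for SSM against CC, 10 to 18 against SSS, 18 to 33 against MSM, 6 to 14 for morphine and 17 to 32 for severity, and lower counts from 2 to 11 for MSM and 4 to 8 for MSS against CC. Medians ranged from -0.0543 to -0.0111 for MSS against CC and from 0.0738 to 0.110 for SSM against MSM. The cause of these shifts was not tested. Of the 102 genes, 19 changed sign under another scaling in SSM against MSM, 0 of them at an unadjusted p under 0.05.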
